A study of Mus musculus with 2 samples.

Results

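Mitochondrial ribosomal protein genes were taken as the protein-coding genes of GENCODE M21 whose symbols begin with Mrpl or Mrps and a number. The rule found 77 genes, 48 Mrpl and 29 Mrps, among 21474 protein-coding and 43346 annotated genes of the deposited tables. A further gene of that name, Mrpl33, has an identifier that is not among theirs and was not analysed here. The cells were G1E, an immortalized mouse line of erythroid progenitors labelled Gata1-, male, postnatal, with an age of 0 day, so that both libraries carried the same GATA1 defect. Polyadenylated RNA was sequenced in 2 libraries, replicate 1 and replicate 2, of 1 biosample and 1 group. There was no second condition, so every comparison is between genes or between the libraries, and no p-value was computed. Nothing but the replicate label says that the libraries came from separate cultures, and the spread between them may be technical.

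The mitochondrial ribosome, or mitoribosome, translates the few messenger RNAs of the mitochondrial genome, all of which encode subunits of the respiratory chain and ATP synthase. Its ribosomal RNAs come from mitochondrial DNA, while its proteins are encoded in the nucleus, made in the cytoplasm and imported. Part of these proteins descend from the bacterial ribosome and part were added in the mitochondrial lineage. Erythroid progenitors need active mitochondria for haem synthesis and proliferation, before red cells finally discard the organelle.

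Replicate 1 held 31645051 expected counts and replicate 2 held 56983558, and the files imply reads of 36 and 55 nt. Erythroid progenitor genes were transcribed, with Gata2 at 626 and 326 TPM, Kit at 191 and 140 TPM and Klf1 at 184 and 141 TPM in replicates 1 and 2. Of the 12 markers of T cells, granulocytes, macrophages, fibroblasts and hepatocytes, Cd3e reached 1.68 TPM in replicate 1 and Adgre1 1.18 TPM in replicate 2, and the other 10 were under 1 TPM in both libraries, with Elane and Ttr listed at 0. Gata1 RNA itself was present at 88.2 and 61.4 TPM. Which part of that gene is disrupted is not stated in the labels.

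Every one of the mitoribosomal genes measured was transcribed. All 77 were at or above 1 TPM in both libraries, beside 42.5% of all protein-coding genes, and 76 were at 5 TPM or more. TPM, a unit of transcript abundance, is the count over effective length, scaled to 1 total in each library. In RNA from a whole culture, fewer cells with a transcript and less of it per cell cannot be told apart. The median over the genes was 74.5 and 70.3 TPM in replicates 1 and 2. The median gene lay above 90.7% of protein-coding genes and the lowest above 66.7%. Against the median of expressed protein-coding genes, 23.5 TPM, 69 of the 77 were higher. Together they held 0.768% of the protein-coding TPM in replicate 1 and 0.841% in replicate 2, a mean of 0.805% ± 0.052 (SD, n = 2).

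The genes did not share 1 level, although their products are thought to enter the ribosome mostly as single copies. Mean levels ran from 7.96 to 291 TPM, a 36.6-fold range. The SD over genes of the mean log2(TPM + 1) was 1.07, and the SD between libraries pooled over the same genes was 0.41. In the order of levels, however, only 1 of 76 neighbouring pairs was further apart than that pooled SD, so single ranks are not resolved. The ranking was similar in both libraries, with a Spearman's rho of 0.87 over the 77 genes, beside 0.92 over expressed protein-coding genes. Both are given as descriptions, since the genes share the 2 libraries. Of the 10 highest genes in each library 6 were the same, and of the 10 lowest 7.

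**Figure D1:**
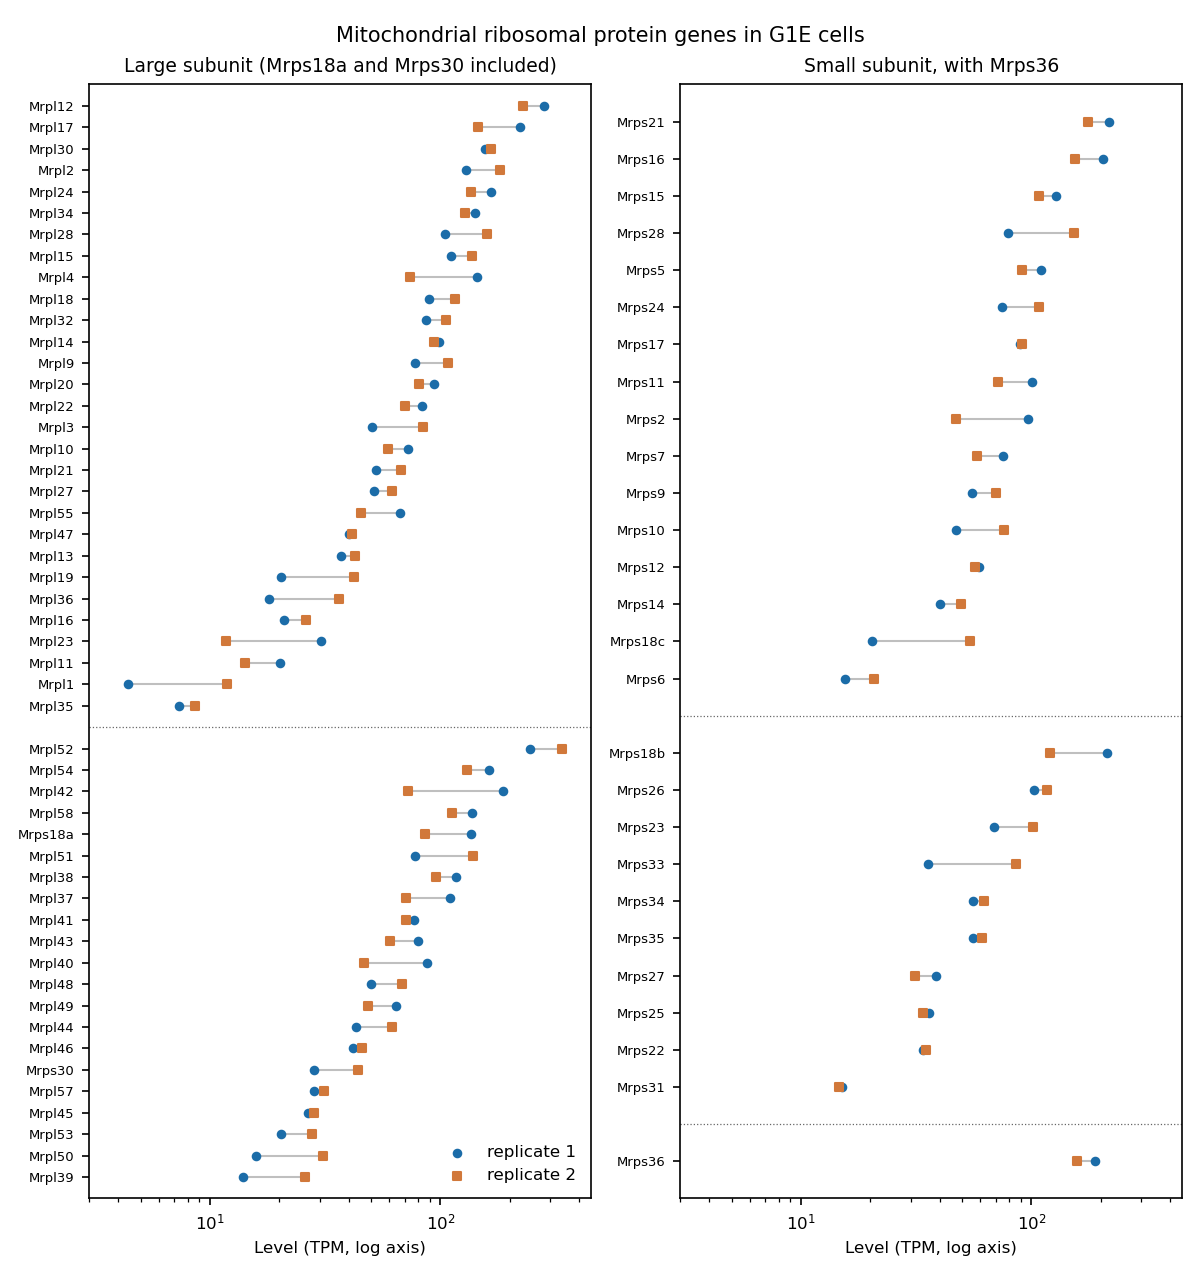
Level of each of the 77 genes in TPM on a log axis, with circles for replicate 1, squares for replicate 2 and a line joining them; the left panel has the large subunit (bacterial homologues above the dotted line, mitochondria-specific proteins below) and the right panel the small subunit in the same order, with Mrps36 at the bottom. Levels spread from under 10 TPM for Mrpl35 to over 200 TPM for Mrpl52 and Mrpl12 in both libraries.

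Among the 29 large-subunit proteins with a bacterial homologue, the median was 76.6 TPM. Mrpl12, the stalk protein that recruits translation factors to the ribosome, was at 281 and 228 TPM in replicates 1 and 2, a mean of 255 ± 37.5 TPM (SD, n = 2). Mrpl10, which anchors the copies of Mrpl12 at the stalk base, was at 72.5 and 59.1 TPM. The Mrpl12 level was above the Mrpl10 level in both libraries. The stalk holds several copies of Mrpl12 for each Mrpl10, and a link between protein copies and RNA level was not tested. Mrpl17, homologue of a bacterial protein at the exit tunnel, was at 220 and 146 TPM. Mrpl30 stood at 156 and 165 TPM, and Mrpl2, which lies near the catalytic centre, at 129 and 181 TPM.

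The same class held the lowest genes of all. Mrpl35 was at 7.32 and 8.60 TPM in replicates 1 and 2, a mean of 7.96 ± 0.91 TPM (SD, n = 2). Mrpl1, the protein of the mobile L1 stalk beside the tRNA exit site, was at 4.43 and 11.9 TPM. Mrpl11, which neighbours the factor-binding stalk, was at 20.2 and 14.3 TPM. These 3 genes were below the 4 highest in both libraries. Both sets were picked by their mean TPM over these same libraries, so this gap largely follows from the choice. Mrpl52 and Mrpl35 mark the ends of the list: Mrpl52 lies on chromosome 14 from 54426909 to 54429756 (plus strand) and Mrpl35 on chromosome 6 from 71812997 to 71826969 (minus strand) of GRCm38.

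The 21 mitochondria-specific proteins of the large subunit had a median of 67.2 TPM. Mrpl52 had the highest mean of the whole list, with 246 and 337 TPM in replicates 1 and 2, and was below Mrpl12 in replicate 1. Mrpl54 was at 163 and 131 TPM. Mrpl42 was at 186 and 72.5 TPM in replicates 1 and 2, so its place near the top rests on replicate 1. Mrpl58, a peptidyl-tRNA hydrolase that rescues stalled ribosomes and was built into the large subunit, was at 137 and 112 TPM. The lowest 3 of the class were Mrpl39 at 14.0 and 25.8 TPM, Mrpl50 at 15.8 and 30.8 TPM and Mrpl53 at 20.4 and 27.6 TPM.

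In the small subunit, the 16 proteins with a bacterial homologue had a median of 79.1 TPM. Mrps21 was at 216 and 176 TPM and Mrps16 at 205 and 154 TPM, both higher in replicate 1. Mrps15 followed at 128 and 108 TPM and Mrps28, which is related to bacterial S1, at 78.8 and 152 TPM. At the lower end were Mrps6 at 15.5 and 20.7 TPM, Mrps18c at 20.4 and 54.1 TPM and Mrps14 at 40.0 and 49.3 TPM. Mrps6 was thus below Mrps21 and Mrps16 in each library with no overlap.

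The 10 mitochondria-specific proteins of the small subunit had a median of 58.8 TPM. Mrps18b was at 213 and 120 TPM, Mrps26 at 102 and 117 TPM, Mrps23 at 68.9 and 102 TPM and Mrps33 at 35.5 and 85.3 TPM. Mrps31 was lowest at 15.1 and 14.7 TPM, followed by Mrps22 at 33.7 and 34.9 TPM and Mrps25 at 36.1 and 33.7 TPM. In TPM, Mrps31, Mrps22 and Mrps25 were close in both libraries, and Mrps18b, Mrps26, Mrps23 and Mrps33 differed more. This did not hold throughout for counts scaled to library size. There the log2 ratio, replicate 2 over replicate 1, was 0.70 for Mrps25, beside -0.36 for Mrps18b and 0.41 for Mrps26. It was 0.25 for Mrps31 and 0.30 for Mrps22, beside 1.24 for Mrps23 and 1.51 for Mrps33.

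The Mrps18 paralogs are a small family whose members occupy different places, Mrps18c in the small subunit at the position of bacterial S18, Mrps18b in the small subunit and Mrps18a in the large. Mrps18b had the highest mean, 167 ± 65.1 TPM, followed by Mrps18a at 111 ± 35.0 TPM and Mrps18c at 37.3 ± 23.9 TPM (SD, n = 2 for each). The order was the same in both libraries. Mrps18a was at 136 and 86.1 TPM in replicates 1 and 2. Mrps18b and Mrps18a overlapped between libraries, while Mrps18c was below both in each.

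Mrps36 carries a ribosomal name, but later work placed its product in the 2-oxoglutarate dehydrogenase complex of the citric acid cycle. It was at 188 and 158 TPM in replicates 1 and 2, rank 7 of 77 in each. Its level lay above the median of every structural class in both libraries.

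By symbol, the median of the Mrps genes minus that of the Mrpl genes was -0.16 on the log2(TPM + 1) scale in replicate 1 and 0.06 in replicate 2, a mean of -0.05 ± 0.15 (SD, n = 2). By subunit, with Mrps18a and Mrps30 counted in the large subunit and Mrps36 left out, the small minus the large subunit was -0.27 and 0.04, a mean of -0.12 ± 0.22 (SD, n = 2). Both differences were smaller than their spread and had opposite signs in the libraries. Over the 36 genes with at most 5% of their sequence shared with other genes, the difference by symbol was -0.34 and -0.08, a mean of -0.21 ± 0.18 (SD, n = 2), with 1 sign in both libraries. Proteins with a bacterial homologue had a higher median than mitochondria-specific ones in both libraries, by 0.47 and 0.26, a mean of 0.37 ± 0.15 (SD, n = 2). With 2 libraries this difference was not tested, and it is small beside the SD over genes. Higher genes tended to be shorter: Spearman's rho of mean TPM and transcript length was -0.44 over the 77 genes and -0.30 over expressed protein-coding genes, given as descriptions. Median length was 899 bases over the 77 genes and 2205 bases over expressed protein-coding genes.

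The products of these genes work beside other groups of the mitochondrial expression system. The 5 mitoribosomal proteins with other symbols were all expressed: Dap3, a GTP-binding protein of the small subunit, had 128 and 187 TPM, Aurkaip1 had 158 and 133 TPM, and Chchd1 had 52.2 and 123 TPM. Gadd45gip1 of the large subunit had 45.9 and 32.6 TPM, and Ptcd3 of the small subunit 12.6 and 35.9 TPM. These values fall inside the range of the 77 genes.

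Factors that build the ribosome were at lower levels than its proteins. All 25 assembly and ribosomal RNA factors were at or above 1 TPM in both libraries, with medians of 22.97 and 25.5 TPM in replicates 1 and 2. Mpv17l2, an inner-membrane protein needed for assembly, led at 90.6 and 88.3 TPM, ahead of Rbfa at 83.4 and 52.0 TPM and Trub2, a pseudouridine synthase, at 59.6 and 47.4 TPM. Gtpbp10, an assembly GTPase, was at 1.82 and 2.60 TPM and Mettl15, a methyltransferase of the small-subunit RNA, at 2.36 and 1.58 TPM. The factors of the translation cycle were similar, with all 15 expressed and medians of 23.3 and 27.0 TPM. Tufm, the elongation factor that delivers tRNA, was an exception at 170 and 124 TPM. Slirp followed at 45.4 and 115 TPM and Oxa1l, which inserts new proteins into the inner membrane, at 85.3 and 62.2 TPM. Guf1 was at 3.06 and 6.93 TPM, and Mtrf1l, a release factor, at 3.86 and 5.39 TPM.

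The respiratory chain, whose mitochondrial part the mitoribosome makes, was higher. Among 85 nuclear respiratory chain genes 80 were at or above 1 TPM in both libraries, led by Atp5b at 2061 and 1313 TPM. The median of the mitoribosomal genes was below theirs by 0.82 log2 units in replicate 1 and 1.26 in replicate 2, a mean difference of -1.04 ± 0.31 (SD, n = 2). Against 83 cytoplasmic ribosomal protein genes, 79 of them at or above 1 TPM in both libraries, the difference was -3.91 ± 0.34 (SD, n = 2). The median of all 83 was 959 and 1267 TPM in replicates 1 and 2. Sequence shared with other genes was not measured for that list. Of the 13 protein-coding genes of the mitochondrial genome, mt-Atp8 had the highest mean, 14043 and 12748 TPM, and mt-Co3 the lowest, 147 and 104 TPM. Transcripts of mitochondrial DNA carry short or no poly(A) tails. Among them, mt-Nd3 was listed at 0 in replicate 1 and at 492 TPM in replicate 2. A link between that difference and tail length was not tested.

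**Figure D2:**
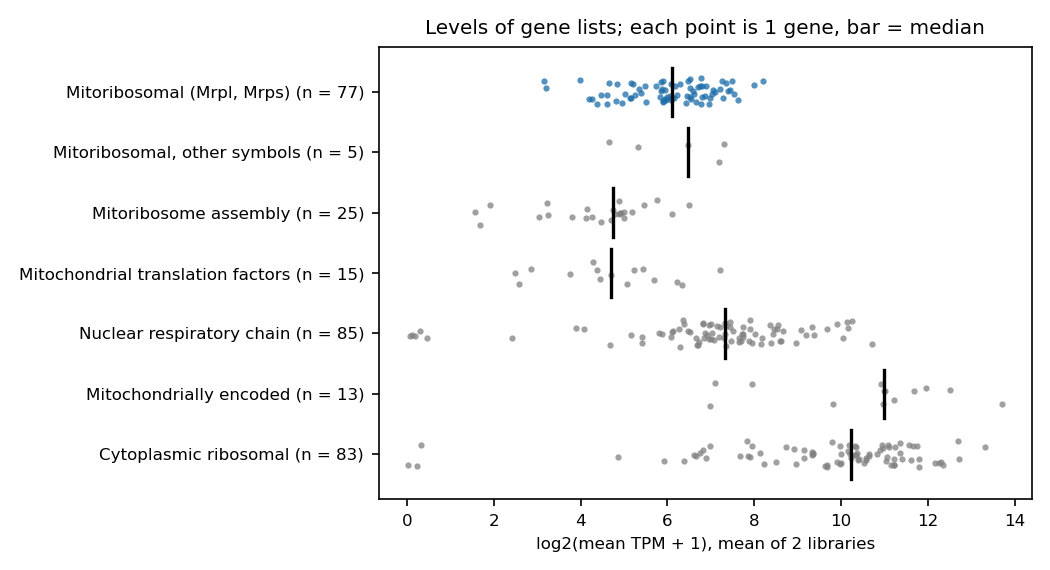
Each point is 1 gene, placed by log2 of its mean TPM over 2 libraries plus 1, with the vertical bar at the median of the list. The mitoribosomal genes form 1 band with none near 0, above the assembly and translation factors and below the respiratory chain and cytoplasmic ribosomal protein genes; points at the left end of those last lists are genes known mostly from other tissues, such as Cox4i2.

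Known regulators of nuclear genes for mitochondria and factors that transcribe or package mitochondrial DNA were measured from a list of 12. Of these, 11 were at or above 1 TPM in both libraries. Myc, a driver of ribosome production and growth, was at 531 and 281 TPM, and Pprc1, a coactivator of the PGC-1 family, at 144 and 63.0 TPM. Polrmt, the mitochondrial RNA polymerase, was at 87.4 and 55.6 TPM. Ppargc1a, the PGC-1 coactivator of muscle and brown fat, was at 0.25 TPM in replicate 1 and listed at 0 in replicate 2. Yy1 was at 55.8 and 69.7 TPM, Nrf1 at 72.4 and 37.5 TPM and Gabpa, an ETS factor, at 14.4 and 17.5 TPM. These 3 are named because their motifs were among those searched at the promoters. The list did not hold a factor for every motif searched.

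Promoters, from RefSeq for GRCm38.p6, span 250 bases before to 50 bases after the start. They were found by symbol for 68 of the 77 genes, 74 promoters in all. Motifs were searched on both strands as exact letters (NRF1 with 1 free base), and none of the letter strings contains another. The YY1 motif AAGATGGC was in 16.2% of these promoters, beside 5.42% of 9264 promoters of expressed protein-coding genes and 2.75% of all 32851. The ETS motif CCGGAAG was in 33.8%, beside 20.96% and 8.86%. The canonical NRF1 motif was in 17.6%, beside 11.9% and 4.60%. The GATA motif AGATAA was in 13.5%, beside 6.21% and 11.2%, so its share was close to that of all promoters and above that of expressed genes. The E-box CACGTG was in 9.46%, beside 10.7% and 7.15%, the CCAAT box in 39.2%, beside 39.0% and 37.4%, and the TATA box TATAAA in 6.76%, beside 6.29% and 13.6%. These shares are descriptions and none was tested; a match is not a binding site. At least 1 of the NRF1, ETS and YY1 motifs was in 42 of the 74 promoters, 56.8%, beside 33.8% of promoters of expressed genes and 14.7% of all.

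**Figure D3:**
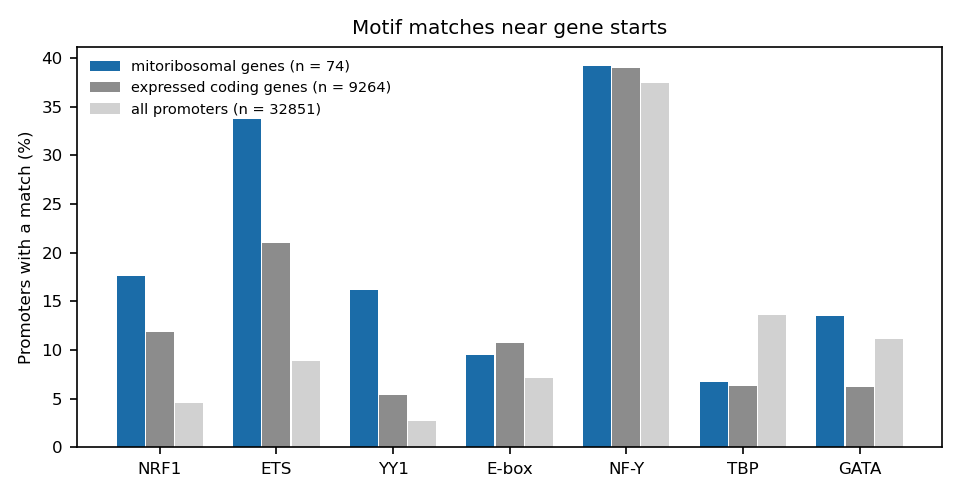
Share of promoters with at least 1 exact match to each of 7 motifs, on either strand, for 74 promoters of mitoribosomal genes, 9264 of expressed protein-coding genes and all 32851; NF-Y stands for the CCAAT box and TBP for the TATA box. The widest gap to expressed genes, as a ratio, is at YY1, with 16.2% against 5.42% over the whole window.

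Over the whole promoter window, the YY1 motif had the highest share of the 7 motifs relative to expressed genes, 2.99 times theirs, and the windows of the 4 most highly expressed genes that hold it are shown to place it, in lower case with the motif in capitals, on the strand of the gene. The first is Mrpl42 (chr10:95501904-95501933, minus strand), then Mrps18a (chr17:46111004-46111033, plus strand), Mrpl32 (chr13:14613258-14613287, minus strand) and Mrps24 (chr11:5707652-5707681, minus strand).
Mrpl42: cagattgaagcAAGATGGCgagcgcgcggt
Mrps18a: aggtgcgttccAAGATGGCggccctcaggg
Mrpl32: cgcgctctGCCATCTTtacccggaaagtcg
Mrps24: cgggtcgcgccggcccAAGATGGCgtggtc
In Mrpl32 the motif lies on the opposite strand, 242 bases before the start, and in the others it begins after the start. Across the 12 genes with a match, 8 matches lay after the start and all 8 of these read in the direction of the gene. The motif contains the letters ATG, and in 6 of the 8 these were the annotated start codon. A match after the start in the gene's direction that holds the start codon was in 8.11% of mitoribosomal promoters and 1.68% of promoters of expressed genes. In the 250 bases before the start alone, the YY1 share was 5.41%, beside 2.32% for expressed genes, a ratio of 2.33, and the GATA motif had a ratio of 2.35.

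Many of the genes start next to another gene that is read in the opposite direction. Such a divergent neighbour within 1000 bases was annotated for 37 of 77, 48.1%, beside 30.9% of expressed and 18.6% of all protein-coding genes. The neighbour was protein-coding for 33, 42.9%, beside 20.2% of expressed genes. In 1 pair both are mitoribosomal: Mrpl46 and Mrps11 overlap by 412 bases at their starts, with Mrpl46 at 41.7 and 45.7 TPM and Mrps11 at 101 and 71.9 TPM. Other partners include Psma2, a proteasome subunit beside Mrpl32, Ndufs6, a complex I subunit beside Mrpl36, and Sars2, the mitochondrial seryl-tRNA synthetase beside Mrps12; these were named after their values were seen. Of the 33 coding neighbours, 29 were at or above 1 TPM in both libraries. The mitoribosomal gene was the higher of the pair in both libraries in 22 cases and the lower in 8. The pair of Mrpl46 and Mrps11 enters both counts, once from each side. No matching share over other genes was computed, and 69 of the 77 lay above the median of expressed protein-coding genes. Within a pair the levels could differ widely: Mrpl50, for example, had 15.8 and 30.8 TPM beside Zfp189 at 0.85 and 1.20 TPM.

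For Mrpl23, most reads were assigned to a copy elsewhere in the genome. Mrpl23 (GRCm38 chr7:142532686-142540747, plus strand) was at 30.4 and 11.8 TPM in replicates 1 and 2, while the processed pseudogene Mrpl23-ps1 (chr2:74591330-74591909, minus strand) was listed at 159 and 134 TPM. The transcripts of both share an identical run of 540 bases, which holds the whole coding sequence of Mrpl23-201, 438 bases. The first 120 bases of that coding sequence, with the start codon in capitals, are shown for both genes because reads inside them have 2 possible sources.
Mrpl23: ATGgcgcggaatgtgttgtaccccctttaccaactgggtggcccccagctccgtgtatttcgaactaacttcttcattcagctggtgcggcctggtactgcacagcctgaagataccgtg
Mrpl23-ps1: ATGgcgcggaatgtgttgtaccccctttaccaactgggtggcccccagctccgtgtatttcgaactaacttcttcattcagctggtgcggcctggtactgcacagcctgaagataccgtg
Mrpl23 had 379 and 320 expected counts and the pseudogene 2020 and 3189, so 84.2% and 90.9% of their summed counts went to the pseudogene. The deposited credibility bounds of the posterior mean TPM of Mrpl23, whose level is not stated, were 9.12 and 68.6 in replicate 1 and 7.86 and 32.4 in replicate 2. The sum of gene and pseudogene was 189 and 145 TPM in replicates 1 and 2. The coding transcript Mrpl23-201 took only 3.04% and 25.7% of the TPM of the gene. Reads inside the shared run cannot be told apart, so the level and rank given for Mrpl23 depend on how they were divided.

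**Figure D4:**
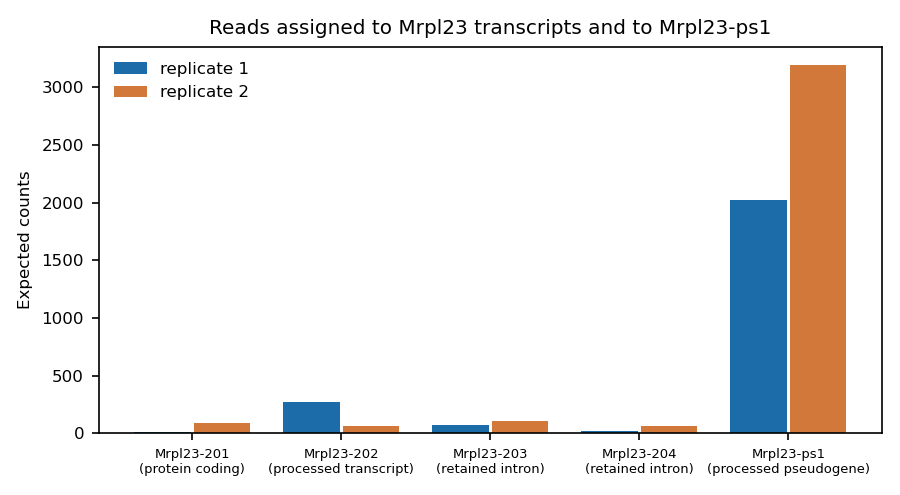
Expected counts of the 4 annotated transcripts of Mrpl23 and of the processed pseudogene Mrpl23-ps1, with 1 bar for each library. The pseudogene bars, 2020 and 3189 counts, stand far above all transcripts of the gene.

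Within most genes the level was assigned to protein-coding transcripts, but in others the leading transcript was of another type. The deposited percent column gives each transcript's share of the TPM of its gene. TPM divides counts by effective length, so a short transcript can lead with fewer reads than a long one. The median gene had 94.6% in replicate 1 and 94.9% in replicate 2 in protein-coding transcripts. In 15 of 77 genes, 19.5%, the leading transcript was of a non-coding type in both libraries, beside 7.98% of protein-coding genes with 50 counts in each library. Mrps26-201, annotated with a retained intron, took 96.7% and 98.3% of Mrps26. Mrpl47-202, a processed transcript, took 93.0% and 80.3% of Mrpl47, and Mrps14-201, annotated for nonsense-mediated decay, took 92.8% and 78.2% of Mrps14. Mrpl3-204, of the same type, took 66.5% and 80.7% of Mrpl3. Mrpl32 had a single transcript in the tables, Mrpl32-201, which M21 types as a target of nonsense-mediated decay. The others of the 15 were Mrpl13, Mrpl15, Mrpl17, Mrpl19, Mrpl39, Mrpl51, Mrps25, Mrps5, Mrps11 and Mrpl23, and in Mrpl14, Mrpl21 and Mrps24 this held for 1 library only. Transcript types came from a later annotation than the one the reads were assigned to. The leading transcript need not hold most reads. At Mrpl19, for example, the coding Mrpl19-201, of 5000 bases, had 752 and 1731 counts in replicates 1 and 2. The leading Mrpl19-203, of 419 bases, had 79.6 and 393. At Mrps26, by contrast, the leading Mrps26-201 had 2364 and 5242 counts and the coding Mrps26-202 had 336 and 377.

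Both libraries had the same leading transcript in 47 of 58 genes with more than 1 transcript, 81.0%, beside 69.2% of protein-coding genes. The leading transcript differed in 11: Mrpl14, Mrpl21, Mrpl23, Mrpl55, Mrps5, Mrps10, Mrps11, Mrps18b, Mrps23, Mrps24 and Mrps35. At Mrpl21, the coding transcript Mrpl21-201 took 31.0% in replicate 1 and 89.0% in replicate 2. At Mrps18b, the coding transcripts Mrps18b-202 and Mrps18b-201 took 58.4% and 31.3% in replicate 1 but 12.1% and 62.3% in replicate 2. Read length differed between the libraries, and its part in these shifts was not tested.

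Few of the genes were far apart between the libraries. Counts scaled to library size by TMM (trimmed mean of M values) were over 2-fold apart in 10 of 77, 13.0%, beside 28.2% of 10467 protein-coding genes with at least 50 counts and 22.6% of those expressed. All 77 passed the 50-count minimum. The fewest counts were 242 in replicate 1, for Mrps18c, and 320 in replicate 2, for Mrpl23. Of the 10 genes apart, 9 were higher in replicate 2, 11.7% of the 77, beside 19.9% of protein-coding genes and 19.6% of those expressed. The other 1 was higher in replicate 1, beside 8.3% and 3.05%. Over the 36 genes with at most 5% shared sequence, 7 were over 2-fold apart, 19.4%, all of them higher in replicate 2, which is close to the share of all genes higher there. With the trend of the ratio with GC content subtracted, 10 of the 77 were again apart, 9 and 1, while the share of all protein-coding genes was 19.8%. At 1.5-fold, 33 of 77 were apart, beside 48.8%. By the ratio of deposited TPM the split was 5 and 3 and by total counts 8 and 2, given without the matching shares of all protein-coding genes. This is 1 library against 1, so no gene has a replicate check and the shares were not tested against each other.

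Mrps18c had 242 expected counts in replicate 1 and 1404 in replicate 2, a log2 ratio of scaled counts of 1.88. Mrpl39 had 323 and 1526, a ratio of 1.59, and Mrps33 had 392 and 1753, a ratio of 1.51. Mrpl1 had 315 and 1346, a ratio of 1.44. The other 5 higher in replicate 2 were Mrpl36, Mrpl50, Mrps23, Mrps28 and Mrpl3, with ratios from 1.20 to 1.29. Mrpl42, the only one higher in replicate 1, had 2748 and 2013 counts, a ratio of -1.10. The median ratio was 0.40 over the 77 genes and 0.26 over all protein-coding genes, and 56 of the 77, 72.7%, were higher in replicate 2, beside 63.5% of protein-coding genes and 67.2% of those expressed. In deposited TPM, 42 were higher in replicate 2 and 35 in replicate 1. The ratio moved with base composition: Spearman's rho with GC content was -0.34 over the 77 genes and -0.48 over protein-coding genes, given as descriptions. Of the erythroid markers, Tfrc, the transferrin receptor, was higher in replicate 2 with a log2 ratio of 2.53, while Gata2 had -0.64 and Epor, the erythropoietin receptor, 0.40. With the GC trend subtracted the median ratio was 0.32 over the 77 genes and 0.23 over all. The part of the state of the cells was not tested.

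**Figure D5:**
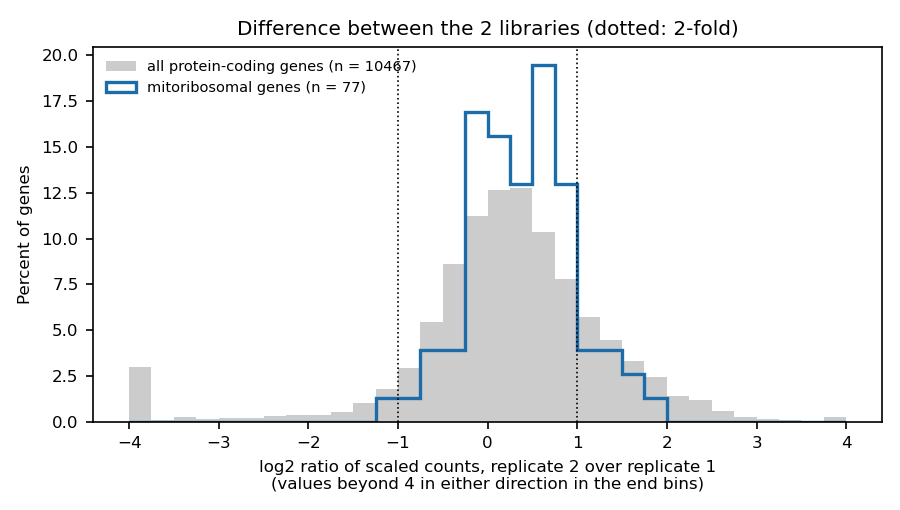
Distribution of the log2 ratio of scaled counts, replicate 2 over replicate 1, as percent of genes, for the 77 mitoribosomal genes (line) and 10467 protein-coding genes (grey), with dotted lines at 2-fold. The mitoribosomal genes lie mostly between the dotted lines, with 9 to the right and 1 to the left.

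Annotated overlaps and copies limit other single values. A gene on the opposite strand overlapped an exon in 28 of the 77, and whether reads were counted by strand is not given in the sources used here. Identical 36-base sequences shared with another gene, on either strand, made up at most 5% of the transcripts in 36 genes and over 20% in 12. Among these 12 were Mrpl53, at 83.8%, Mrps34, at 73.2%, and Mrps25, at 68.7%. Nr2c2 held 68.7% of the Mrps25 sequences and Mapk8ip3 55.8% of those of Mrps34, and both overlap the gene on the opposite strand. Gm42688, which held 83.8% of the Mrpl53 sequences, overlaps it on the same strand.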

How the data were processed

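Expected counts, the estimated reads of each gene or transcript, were deposited without normalisation in a gene table and a transcript table for each library. Beside them stand TPM and FPKM values, deposited by the authors per the file headers, and the posterior mean of TPM with its bounds (deposited signal columns) and, in the transcript tables, the percent of a gene assigned to each transcript. The deposited notes name assembly mm10 and annotation M4; the aligner and quantifier were not given in the sources used here. Protein-coding genes held 84.4% and 75.1% of the TPM in replicates 1 and 2, which is why rescaling to the coding total was tried. Entries that name no gene, with 0.0363% and 0.00942% of the counts, were left out.

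Gene identifiers without version were matched to GENCODE M21 of GRCm38 (42462 of 43346). Expressed means 1 TPM or more in both libraries. Differences of list medians use log2(TPM + 1). Library ratios used rounded counts scaled by TMM in edgeR 4.0.16 (R 4.3.3), 0.5 added to each, with 50 counts in total as the minimum and 2-fold as the threshold. DESeq2 1.42.0 gave alternative size factors. Shared sequence is the share of a gene's 36-base sequences, over all its M21 transcripts, found in another gene on either strand. Not all of these transcripts were quantified, so a low share does not exclude reads with more than 1 possible source. Mrpl23, for example, had a share of only 13.5%, although its whole coding sequence lies in the pseudogene. Other steps used Python 3.11.15 with pandas 2.3.3. Members and lists were chosen with earlier results of these data known. Genes are named by rule: the 4 highest and 3 lowest of each class, those over 2-fold apart, those whose leading transcript differs or is non-coding, the Mrps18 paralogs, Mrpl10, Mrpl12 and Mrps36, and the highest and lowest of other lists; others are said to be outside it. With 2 libraries no test was made, and alternatives were other units, scalings, filters and leaving out each library. One erythroid marker of the list is not reported here.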

Additional observations from a re-analysis of the deposited data

How the results depend on the processing

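With 1 group of 2 libraries, no difference could be tested, and the effect of depth was not examined. The median level of the genes, 6.07 on the log2(TPM + 1) scale, became 6.39 with TPM rescaled over protein-coding genes, 5.69 with FPKM and 6.25 over the 36 genes with at most 5% shared sequence, and ranged from 6.15 to 6.24 with either library left out. The Mrps minus Mrpl difference of -0.05, split by symbol, was -0.12 with Mrps18a and Mrps30 in the large subunit and Mrps36 left out, ranged from -0.16 to 0.057 with 1 library left out, changing sign without replicate 1, and was -0.21 ± 0.18 (SD, n = 2), negative in both libraries, over the genes with little shared sequence. Over those 36 genes the SD over genes was 1.25 and their share of protein-coding TPM 0.387%, since fewer genes enter. The median log2 ratio between libraries was 0.21 with total counts and 0.081 with deposited TPM, where the median of all protein-coding genes was 0.07 and -0.09. At 1.5-fold 33 genes were apart, beside 48.8% of all. The YY1 share was 5.41% without the bases after the start. Summing Mrpl23 with its pseudogene, an alternative chosen after seeing the data, gave a level 7.93 times as high. No paired analysis was possible because there is only 1 group.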

Other observations

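Other processed copies took fewer reads than the Mrpl23 pseudogene did. Gm5776, a processed pseudogene with 87.4% of its sequence shared with Mrps33, was listed at 34.3 and 37.2 TPM in replicates 1 and 2, beside 35.5 and 85.3 TPM for Mrps33 itself. Gm14017, a copy of Mrpl51, was at 67.5 and 11.4 TPM, beside 77.3 and 138 TPM for Mrpl51. Mrpl48-ps was at 15.0 and 11.7 TPM, beside 50.1 and 67.9 TPM for Mrpl48. Mrps36-ps2 was at 15.7 and 3.79 TPM and Gm13328, a copy of Mrps5, at 8.11 and 1.31 TPM. These copies were named after their values were seen, and whether any of them is itself transcribed was not tested.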
